A study of Mus musculus with 3 samples.

Results

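The proteasome genes described here are those whose symbol begins Psma to Psmg and ends in a number: the subunits of the protease core, of its regulatory cap and activators, and the dedicated assembly factors. Array probes were named through the RefSeq accession they carry, and 59 probes for 48 such genes were found among 27502 named probes for 20882 genes. The rule uses symbols and no measured value, although the group was picked for description with earlier results of these data known. RNA came from primary cells cultured from cavernous tissue of the penis of C57BL/6 mice and labelled endothelial, grown in serum-containing medium with heparin and vascular endothelial growth factor A. Each of 3 conditions was kept for 48 h: normal glucose (5 mmol as labelled), high glucose (30 mmol), and high glucose (30 mmol) with added DKK2, a secreted modulator of Wnt signalling at a dose that the labels do not state. For each condition, RNA of 3 samples was pooled and hybridised to 1 single-colour Agilent array. With a single array for each condition, differences have no check by replicates and no p-value, and condition cannot be told apart from the position of the array on the slide.

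The proteasome is the chamber in which cells degrade proteins tagged with ubiquitin. Its 20S core is a barrel of alpha and beta rings, in which the beta1, beta2 and beta5 subunits carry the active sites. The 19S cap recognises ubiquitin, unfolds the substrate with a ring of ATPases and feeds it into the core. Interferon and other inflammatory signals induce alternative active-site subunits (Psmb9, Psmb10 and Psmb8), which replace the standard ones in newly assembled cores to form the immunoproteasome, a form known for making peptides for MHC class I. The PA28 cap, built of Psme1 and Psme2, is induced by the same signals.

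Levels are given as log2 of the scanner's processed signal relative to the 75th percentile of the same array, so that 0 is the signal at that percentile. They compare 1 gene between arrays and are not compared between genes. A gene was read on its brightest probe. Differences carry a technical error SD of 0.20 log2 units from the scanner's error model for every member except Psma8. That error covers neither variation between cultures nor disagreement between probes of 1 gene. Differences of at least 2-fold were counted, and the same count over all genes measured stands beside each.

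Of the 48 genes, 47 passed the scanner's well-above-background call on 1 array or more, and 46 on all. Psmb11, the thymus-specific beta5 subunit, was not well above background on any array. Psma8, an alpha subunit of germ cells, was near the detection limit, with levels of -8.27 in high glucose and -8.24 with DKK2, and was not well above background in normal glucose. No bound above 1-fold could be given for it. The median signal over all probes before scaling was 101.8 on the normal glucose array, lower than the 196.1 of high glucose and the 204.5 of DKK2.

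Markers of several cell types were present on the arrays. Of 15 endothelial markers, 13, 15 and 14 were well above background on the normal glucose, high glucose and DKK2 arrays; Erg and Emcn were not in normal glucose, nor was Erg with DKK2. The level of Pecam1 was -3.16, -2.69 and -2.48 in normal glucose, high glucose and DKK2. Pecam1 does not stand for the list. With DKK2 against high glucose, 7 of 14 endothelial markers measured lay above 0 and 7 below, with 4 at least 2-fold lower. All 10 fibroblast markers and all 8 smooth muscle and pericyte markers were well above background on every array. In such mixed RNA, fewer cells of a type and less RNA per cell cannot be told apart.

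**Figure D1:**
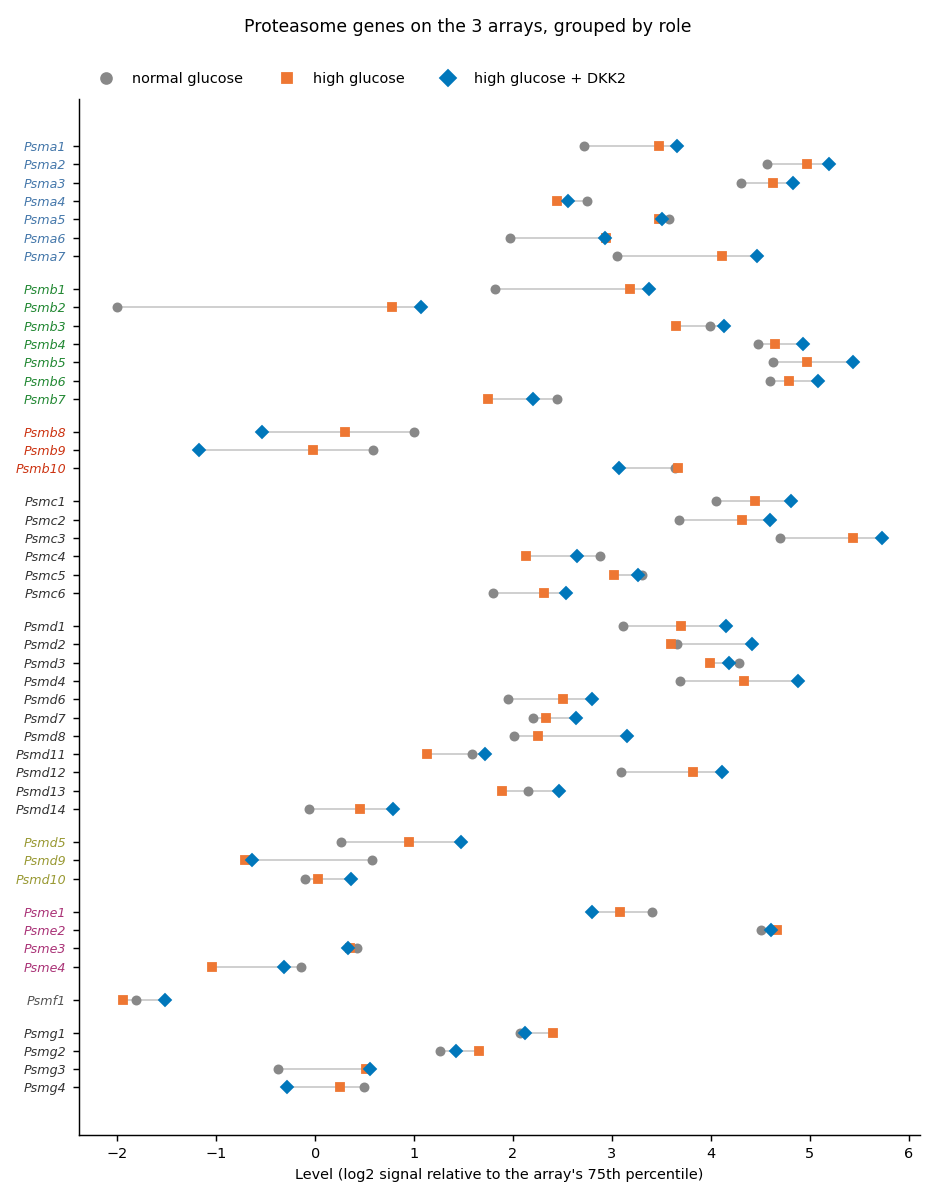
Level of each of the 46 proteasome genes well above background on all arrays, in log2 units relative to the array's 75th percentile, with 1 point per array (circle, normal glucose; square, high glucose; diamond, high glucose with DKK2). Genes are grouped by role; Psmb2 spans the widest range, from -2.00 to 1.07, and Psmb8 and Psmb9 have the diamond as their lowest point.

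The first comparison set the high glucose array against the normal glucose array. A few standard core subunits were at least 2-fold higher on the high glucose array, led by Psmb2 at 6.85-fold. The immunoproteasome subunits Psmb8 and Psmb9 were lower by 1.62-fold and 1.53-fold. As a group the genes were spread on both sides of 0. Endothelial markers had a median of 0.47 in this comparison, with 12 of 13 above 0. Of 8 smooth muscle and pericyte markers, 4 lay above 0 and 4 below (median 0.09). At least 1.5-fold lower were 3 of these 8, and 1 was at least 1.5-fold higher. Of 14 macrophage and leukocyte markers, 8 lay above 0 (median 0.25), with 5 at least 1.5-fold higher and 2 lower. Fibroblast markers had a median of -0.09, with 4 of 10 above 0. The part of these cells in the proteasome differences was not tested. The median difference of the proteasome genes was 0.18 over 46 genes, against 0.09 over 16767 genes measured. Of the 46, 28 lay above 0 and 18 below (56.4% and 43.6% of all genes). At least 2-fold higher were 3 of the 46, where 2.67% of all genes were, and 1 was at least 2-fold lower, where 5.73% were. With a 1.5-fold rule the counts were 11 higher (14.0% of all genes) and 6 lower (13.6%).

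Psmb2, the beta4 subunit, a structural member of the beta ring, had levels of -2.00, 0.77 and 1.07 in normal glucose, high glucose and DKK2. The normal glucose array stood far below both high glucose arrays. The difference between high and normal glucose was 2.78, and it lay between 2.38 and 2.82 over the alternative ways of processing. Psmb2 was read on a single probe.

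Psmb1, the beta6 subunit, which has no active site, had levels of 1.81, 3.18 and 3.38 in the same order. Its difference was 1.37, or 2.58-fold. Psma7, the alpha4 subunit, stood at 3.05, 4.11 and 4.47, a difference of 1.06. With quantile normalization and with cyclic loess the difference was just inside 2-fold, at 0.96 in the latter. In each of these genes the normal glucose array was the lowest of the 3.

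Elsewhere in the alpha ring, Psma6 was higher by 0.97 and Psma1 by 0.76, and the lowest member was Psma4 at -0.30. The alpha ring had a median of 0.41 over 7 genes, of which 5 lay above 0. The standard beta ring had a median of 0.19 over 7 genes, and its lowest member was Psmb7, the standard beta2 active-site subunit, at -0.70. Levels of Psmb7 were 2.44, 1.74 and 2.20 in that order. Subunits of the same ring thus differed in sign.

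Of the 6 ATPases of the cap, 4 were above 0, with a median of 0.46. Psmc3 was the highest at 0.73 on its brighter probe (0.11 on the other, 0.42 as their mean) and Psmc4 the lowest at -0.75. Psmc4 had levels of 2.88, 2.13 and 2.65, with high glucose the lowest array. The 11 other cap subunits had a median of 0.25, running from -0.46 in Psmd11, a scaffold subunit of the lid, to 0.73 in Psmd12, another lid subunit.

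Among the assembly and activator genes, Psmd9, a chaperone for assembly of the cap's ATPase ring, was lower by 1.28, with levels of 0.57, -0.71 and -0.64. It was the only one of the 46 that was at least 2-fold lower. A second, dimmer probe for Psmd9 read -0.47, and with the mean over both probes the difference was -0.88, inside 2-fold. Psmd5, another such chaperone, was at 0.69, and Psmd10 at 0.13. Psmg3, a chaperone that helps build the alpha ring, was the highest of the 4 genes of its kind at 0.89, and Psmg4 the lowest at -0.25. Psme4, the PA200 activator, had levels of -0.15, -1.04 and -0.32, a difference of -0.89, and its other probe read -0.79. Psmf1, the proteasome regulator PI31, was at -0.13.

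The immunoproteasome genes had differences of -0.69 for Psmb8, -0.61 for Psmb9 and 0.03 for Psmb10. In the PA28 family Psme1 was at -0.33, Psme2 at 0.17 (0.58 on its other probe) and Psme3, the nuclear PA28 gamma, at -0.07. The Psme1 probe was spotted 10 times per array, and the SD over spots was 0.073 for normal glucose, 0.069 for high glucose and 0.052 for DKK2. Spots on 1 array are technical repeats.

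**Figure D2:**
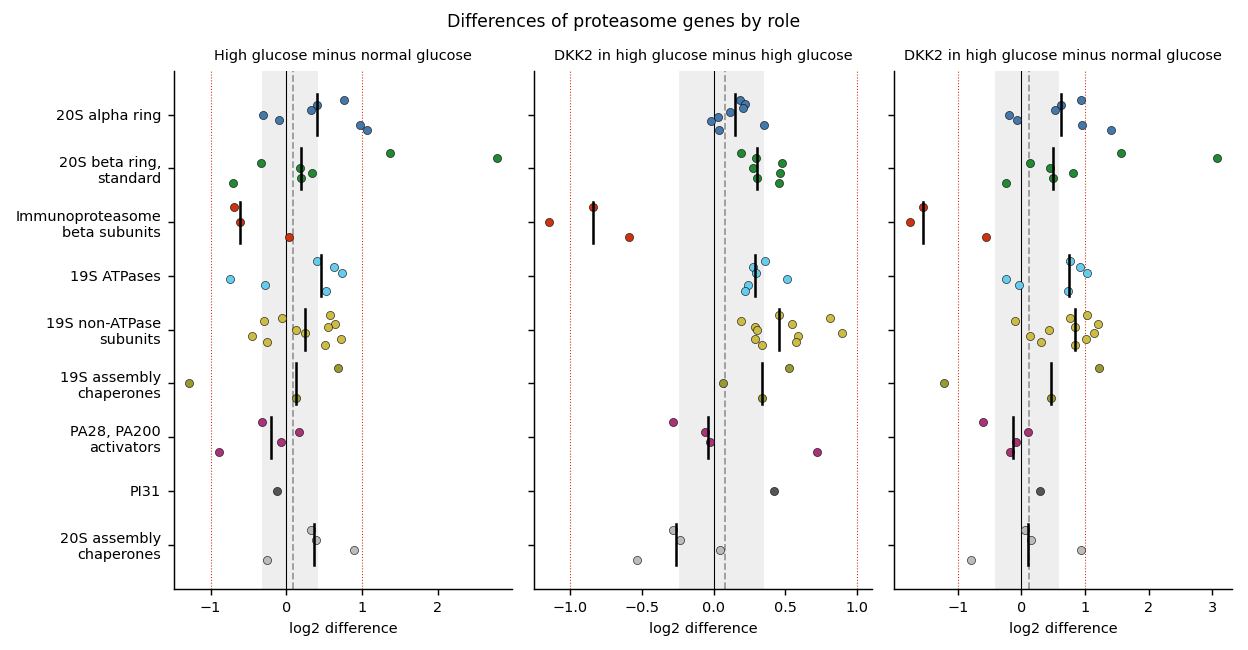
Log2 difference of each proteasome gene in the 3 comparisons (panels), by role (rows); black bars are role medians, the dashed line and grey band are the median and middle 50% of all genes measured, and dotted lines mark 2-fold. In the middle panel the immunoproteasome subunits lie at -1.15 to -0.59 while all 7 standard beta subunits lie at 0.19 to 0.48; the 3 panels share arrays and have different horizontal scales.

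Probes of the same gene agreed less in this comparison than in the next. Of 11 genes with 2 measured probes, 3 had the probes on opposite sides of 0: Psma4, Psmb5 and Psmd12. The median gap between probes was 0.40 and the largest 0.94, in Psmd12, whose brighter probe read 0.73 and dimmer probe -0.21. For DKK2 against high glucose the same 11 genes had no pair of opposite sign, with a median gap of 0.10 and a largest gap of 0.48, in Psmd9. For DKK2 against normal glucose 3 of the 11 again had opposite signs: Psma4, Psmd12 and Psmd9. The median gap there was 0.43 and the largest 1.29, in Psmd9. No test of the difference in agreement was made.

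**Figure D3:**
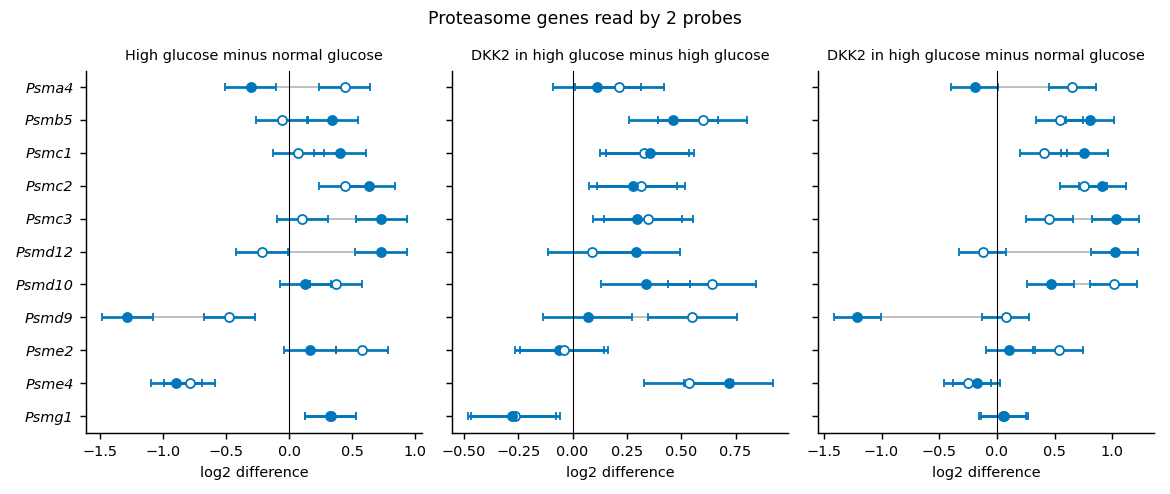
Log2 difference on each probe for the 11 proteasome genes with 2 probes, in the 3 comparisons (panels); filled points are the brighter probe used elsewhere, open points the dimmer one, and bars are the technical error SD. Both probes of each gene lie on the same side of 0 in the middle panel, and Psma4, Psmb5 and Psmd12 straddle 0 in the left panel.

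The second comparison set the array of DKK2 in high glucose against the array of high glucose alone. Most standard subunits lay above 0, and the induced active-site subunits lay below it. Of 32 standard subunits of the core and cap, 31 were above 0, with a median difference of 0.30, and the exception was Psma6 at -0.02. The 31 include Psma8, at 0.04 with a technical error SD of 0.44; without it 30 of 31 were above 0, with the same median. The induced subunits Psmb8, Psmb9 and Psmb10 were lower by 1.79-fold, 2.21-fold and 1.51-fold. PA28 genes Psme1 and Psme2 were at -0.28 and -0.06, the latter inside the technical error. Most of the standard subunits' differences were small, and their interval between lowest and highest ran from -0.02 to 0.89.

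Over all 47 genes measured the median was 0.28, against 0.08 over 17821 genes, and 37 lay above 0 and 10 below, where 57.6% and 42.4% of all genes did. By the 2-fold rule 0 were higher, where 5.08% of all genes were, and 1 was lower, where 4.85% were. By the 1.5-fold rule 4 were higher (13.1% of all genes) and 3 lower (11.3%). The shares of large differences were thus no greater than those over all genes, and what the standard subunits showed was a small difference in the same direction. Of the 32, 24 differed from 0 by more than 1 technical error SD, as did 11144 of the 17821 genes. Of the same 32, 29 lay above the median of all genes in the main setting. The number was also 29 under each of the 8 other scalings, filters and probe rules, out of 31 with a floor of 100 on the signal. Several of these settings keep the values or shift all genes alike, so they could hardly change that number.

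The cap had the largest of these differences. Psmd8, a lid subunit, had levels of 2.01, 2.25 and 3.15 in normal glucose, high glucose and DKK2. The DKK2 array was the highest, by 0.89 or 1.86-fold over high glucose, and high glucose exceeded normal glucose by 0.25. Psmd2, a large scaffold subunit of the base that holds ubiquitin shuttle proteins, had levels of 3.66, 3.60 and 4.41, a difference of 0.81. For Psmd2 both arrays without DKK2 were close and the DKK2 array was higher. Psmd11 came next at 0.59, and the lowest of the 11 was Psmd3 at 0.19. All 11 non-ATPase subunits were above 0, with a median of 0.46.

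All 6 ATPases were above 0 as well, between 0.22 in Psmc6 and 0.52 in Psmc4, with a median of 0.29. In the core, the 7 standard beta subunits lay between 0.19 in Psmb1 and 0.48 in Psmb3, with a median of 0.30. The alpha ring had the smallest differences, from -0.02 in Psma6 to 0.35 in Psma7, with a median of 0.15 over 8 genes, and 2 of the 8 went beyond 1 technical error SD. These 3 ranges overlap, and no difference between rings was tested.

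The assembly factors lay on both sides of 0. Of the 4 chaperones for the core, 3 were below 0: Psmg1 at -0.28 (-0.26 on its other probe), Psmg2 at -0.24 and Psmg4 at -0.54, with Psmg3 at 0.04. Psmg4 had levels of 0.50, 0.25 and -0.29, the DKK2 array being the lowest. The cap's chaperones were above 0, with Psmd5 at 0.53, Psmd10 at 0.34 (0.64 on its other probe) and Psmd9 at 0.07. Psmd9 read 0.55 on its other probe and 0.31 as the mean over both. Psme4 was at 0.72 (0.53 on its other probe), Psmf1 at 0.42 and Psme3 at -0.02.

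Psmb9, the induced beta1 subunit, stood at 0.59, -0.03 and -1.17 in normal glucose, high glucose and DKK2, and was lower by 1.15. It was the only one of the 47 past 2-fold. Psmb8, the induced beta5 subunit, stood at 1.00, 0.31 and -0.54, lower by 0.84. Psmb10, the induced beta2 subunit, stood at 3.64, 3.67 and 3.08, lower by 0.59. In all 3 genes the DKK2 array was the lowest, and in Psmb10 the other arrays differed by less than the technical error. Under the 8 alternatives Psmb9 lay between -1.18 and -1.05, Psmb8 between -0.88 and -0.84 and Psmb10 between -0.71 and -0.59. Each was read on 1 probe.

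Set against its standard counterpart, each induced subunit had the lower difference with DKK2. Psmb9 minus Psmb6, the beta1 pair, gave -1.45 (technical error SD 0.29). The beta2 pair, Psmb10 minus Psmb7, gave -1.05, and the beta5 pair, Psmb8 minus Psmb5, gave -1.31. These are differences between changes, each within 1 probe, and not ratios of the amounts of the proteins. In high glucose against normal glucose the same contrasts were -0.80 for beta1, 0.73 for beta2 and -1.04 for beta5. The beta2 pair thus had the opposite sign there, Psmb7 being lower by 0.70. Psmb5 was read on its brighter probe, at 0.34 in that comparison and 0.46 with DKK2. Its dimmer probe read -0.05 and 0.60, a disagreement that the technical error does not cover.

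**Figure D4:**
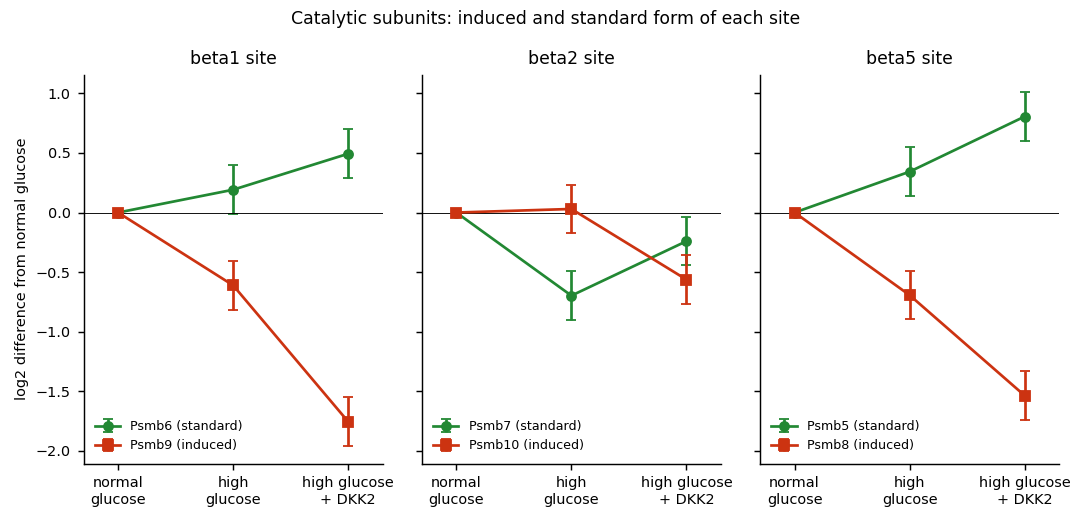
Log2 difference from the normal glucose array for the induced subunit (squares) and the standard subunit (circles) of each active site, on the 3 arrays; bars are the technical error SD, and the normal glucose point is 0 by definition. With DKK2 the induced subunits stood at -1.76 (Psmb9), -0.56 (Psmb10) and -1.54 (Psmb8), and the standard ones at 0.49 (Psmb6), -0.24 (Psmb7) and 0.81 (Psmb5). The dimmer probe of Psmb5, not drawn, read 0.54.

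Promoter sequence was looked up for the active-site subunits because the induced and standard forms lay on opposite sides of 0. In the RefSeq promoter table (build GRCm38.p6), 40 of the 48 genes were matched. Shown are the 250 bases before the annotated start for 5 of the 6 active-site genes, 5′ to 3′ on the gene's strand, with Psmb7 named only. Capitals mark matches on either strand to any of 5 motifs: the interferon-stimulated response element core (GAAA, any 2 bases, GAAA), the gamma-activated site core TTCNNNGAA, the antioxidant response element core TGACNNNGC, the CCAAT box and a kappaB motif (GGGA, any base, TTTCC).
Psmb9, induced beta1, chr17:34187331-34187580, minus strand: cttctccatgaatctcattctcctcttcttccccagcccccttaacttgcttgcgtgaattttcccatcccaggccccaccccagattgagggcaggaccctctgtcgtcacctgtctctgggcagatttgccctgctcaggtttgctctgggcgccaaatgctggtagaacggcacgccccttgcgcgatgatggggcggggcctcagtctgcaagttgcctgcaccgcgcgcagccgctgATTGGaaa
Psmb8, induced beta5, chr17:34197945-34198194, plus strand: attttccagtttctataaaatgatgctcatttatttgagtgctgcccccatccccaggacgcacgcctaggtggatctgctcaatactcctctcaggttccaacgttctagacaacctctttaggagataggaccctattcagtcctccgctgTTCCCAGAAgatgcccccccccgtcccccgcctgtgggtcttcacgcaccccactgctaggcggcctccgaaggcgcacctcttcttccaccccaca
Psmb10, induced beta2, chr8:105938393-105938642, minus strand: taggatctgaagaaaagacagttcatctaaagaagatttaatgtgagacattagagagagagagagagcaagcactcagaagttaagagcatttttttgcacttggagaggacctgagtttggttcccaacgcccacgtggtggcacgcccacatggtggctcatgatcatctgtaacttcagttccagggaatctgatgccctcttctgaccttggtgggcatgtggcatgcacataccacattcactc
Psmb6, standard beta1, chr11:70525107-70525356, plus strand: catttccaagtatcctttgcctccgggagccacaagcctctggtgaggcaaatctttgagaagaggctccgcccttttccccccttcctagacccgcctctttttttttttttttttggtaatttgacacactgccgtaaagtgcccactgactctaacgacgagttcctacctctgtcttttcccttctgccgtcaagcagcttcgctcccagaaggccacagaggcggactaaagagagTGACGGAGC
Psmb5, standard beta5, chr14:54617996-54618245, minus strand: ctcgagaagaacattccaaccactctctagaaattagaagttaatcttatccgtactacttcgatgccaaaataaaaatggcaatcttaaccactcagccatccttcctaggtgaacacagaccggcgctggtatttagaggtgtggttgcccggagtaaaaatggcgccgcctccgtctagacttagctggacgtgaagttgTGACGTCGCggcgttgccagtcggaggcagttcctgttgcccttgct

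In these windows Psmb5 held the antioxidant core, bound by NRF1 and NRF2, as TGACGTCGC at 47 to 39 bases before the start, and Psmb6 held it as TGACGGAGC at 9 to 1 bases before the start. That core was found before 4 of 25 matched standard subunits (Psmb5, Psmb6, Psmc6 and Psmd12) and in 10.2% of 32851 promoters. Psmb8 held a gamma-activated core, TTCCCAGAA, at 97 to 89 bases before the start; 7.02% of all promoters held that core. Psmb9 held a CCAAT box on the other strand, 8 to 4 bases before the start, and 33.8% of all promoters and 10 of the 25 standard subunits held that box. Of the matched genes Psmb8, Psmb9, Psmb10, Psme1 and Psme2, 0 of 5 held the interferon-stimulated core (2.98% of all promoters) and 0 of 5 the kappaB motif (0.356%). The antioxidant core was found in 0 of these 5, the gamma-activated core in 1 (Psmb8) and the CCAAT box in 1 (Psmb9). Among the 25 standard subunits, 2 held the interferon-stimulated core (Psmb3 and Psmd4), 0 the gamma-activated core and 0 the kappaB motif. The windows are short, a match is only a match of letters, and none of these motifs overlapped another in the sequences shown.

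Psmb9 and Psmb8 are neighbours in the MHC region of chromosome 17, where the gene order in GRCm38.p6 is Psmb9, Tap1, Psmb8, Tap2. Tap1 and Tap2 encode the transporter that carries proteasome-made peptides to MHC class I. With DKK2, Tap1 was at -0.36 and Tap2 at -0.37, beside -1.15 for Psmb9 and -0.84 for Psmb8. In high glucose against normal glucose Tap1 was at 0.70, the opposite sign to Psmb9, Psmb8 and Tap2 (-0.46). Psme1 and Psme2 lie on chromosome 14 with 1 protein-coding gene between them.

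The wider set of MHC class I antigen processing genes and their interferon regulators had a median of -0.30 with DKK2 over 11 genes, with 7 below 0. The light chain gene B2m was at -0.33, and Irf1, an interferon-activated transcription factor gene, was at -0.52. Irf8, a factor of myeloid cells, was the only one of the 11 at least 2-fold apart, at 1.03, and Nlrc5, an activator of MHC class I genes, was at 0.77. The MHC class I genes H2-K1 and H2-D1 were at 0.09 and 0.21; these genes have near-identical relatives, so their probes may read several.

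Macrophage and leukocyte markers lay on the other side of 0 from the immunoproteasome genes. With DKK2, 15 of 15 measured were above 0 and 14 at least 1.5-fold higher, with a median of 1.67. The summed level of the 15, as signal relative to the array's 75th percentile, was 28.0, 19.8 and 28.0 on the normal glucose, high glucose and DKK2 arrays. Such a sum adds signals of different probes and is compared only between arrays. Its brightest marker, Itgam, at log2 levels of 4.62, 3.97 and 4.01, made up most of each sum. The equal sums in normal glucose and DKK2 therefore do not show equal levels of the other markers. With DKK2 against normal glucose, Itgam was at -0.60, while 13 of 14 markers lay above 0, with a median of 1.86. No marker read 0; Cd53 was not well above background in normal glucose and Cd68 was not matched. Fibroblast markers were below 0 in 10 of 10 cases (median -0.58), with summed levels of 512, 475 and 339, and smooth muscle and pericyte markers in 8 of 8 (median -0.51), with sums of 82.8, 49.8 and 28.6. The 14 endothelial markers measured had a median of -0.05, with 7 above and 7 below 0. Of these, 0 were at least 1.5-fold higher, 5 at least 1.5-fold lower and 4 at least 2-fold lower, and the list's sums were 7.07, 8.47 and 9.26. The highest endothelial marker level on each array, 1.60, 1.94 and 2.17 in log2 units, made up a large part of each sum. The rising endothelial sums therefore do not show a rise of the list as a whole. The part of these cell types in the proteasome differences was not tested.

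Genes that work around the proteasome but fall outside the symbol rule were read from lists of their own. Of 9 associated genes, 5 were above 0 with DKK2, with a median of 0.06. Adrm1 and Sem1, which are integral cap subunits, were at 0.49 and 0.15, and Pomp, the maturation factor of the core, at 0.06. Txnl1, a cap-associated thioredoxin, was at -0.71. Ubiquitin genes and shuttles were above 0 in 13 of 14 cases, with a median of 0.17, and Rad23b and Ubqln1, shuttles that carry ubiquitinated proteins to the cap, were at 0.70 and 0.68. Of these 2 lists 0 genes were at least 2-fold apart in either direction.

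Transcription factors known to drive proteasome genes, and genes that process or restrain them, were measured as well. Nfe2l1, which encodes NRF1, had levels of -0.94, -1.34 and -1.15, and Nfe2l2, which encodes NRF2, 3.82, 4.21 and 4.58. With DKK2 the difference was 0.19 for Nfe2l1, inside the technical error, and 0.37 for Nfe2l2. The whole list of 8, with the NRF1-processing enzymes Ddi2 and Ngly1 and the NRF2 inhibitor Keap1, had a median of 0.18 with DKK2 and -0.33 in high glucose against normal glucose, where Mafk, a small Maf partner, was lower by 1.15. Activity of these factors was not measured here.

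The last comparison was between DKK2-treated cells and those in normal glucose. It shares arrays with both others, so its values are given for description. Most standard subunits were higher and the immunoproteasome genes lower. The 31 standard subunits measured had a median of 0.76, with 25 above 0, and Psmb8 and Psmb9 were lower by 2.90-fold and 3.38-fold. For the beta2 pair, Psmb10 minus Psmb7 was -0.32. Of 14 macrophage and leukocyte markers, 10 were at least 2-fold higher (median 1.86), and 9 of 10 fibroblast markers were below 0 (median -0.73); their part was not tested. The median over 46 genes was 0.46, against 0.12 over 16672 genes, and 32 lay above 0 and 14 below (56.5% and 43.5% of all genes). At least 2-fold higher were 9 of 46, where 10.5% of all genes were, and 3 were lower, where 10.4% were. By the 1.5-fold rule 20 were higher (24.2% of all genes) and 5 lower (19.2%).

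The 9 were Psmb2 at 3.07, Psmb1 at 1.56, Psma7 at 1.41, Psmd5 at 1.21, Psmd4, a ubiquitin receptor of the cap, at 1.20, Psmd8 at 1.14, Psmd1, the other large scaffold subunit of the base, at 1.04, Psmc3 at 1.03 and Psmd12 at 1.02. With quantile normalization or with cyclic loess the count was 4, with the mean over probes 7 and with normexp 12. On a dimmer second probe Psmc3 read 0.45 and Psmd12 read -0.12. Psmd4 had levels of 3.69, 4.33 and 4.88, and Psmd1 3.11, 3.70 and 4.15. In both the arrays stood in the order normal glucose, high glucose, DKK2, each step being larger than the technical error.

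The 3 lower genes were Psmb9 at -1.76, Psmb8 at -1.54 and Psmd9 at -1.21. Psmd9 read 0.08 on its other probe and -0.57 as the mean over both. Psma4 also had probes of opposite sign, at -0.19 on the brighter and 0.65 on the dimmer one. Psmb10 was at -0.56, Psme1 at -0.60, Psme2 at 0.11 and Psme3 at -0.09. Lowest among the standard subunits were Psmb7 at -0.24 and Psmc4 at -0.23, and Psmg4 was at -0.79 while Psmg3 was at 0.93. Outside the symbol rule, Uchl5, a deubiquitinase of the cap, went from 0.27 to 1.37 in level, and Ufd1 and Ubqln1, which deliver ubiquitinated substrates, differed by 1.19 and 1.05; Txnl1 was at -1.03, Ecpas, a proteasome adaptor, went from -0.73 to -1.73 in level, Mafk was at -1.01, Erap1, which trims MHC class I peptides, at -1.25 and Nlrc5 at 1.01.

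**Figure D5:**
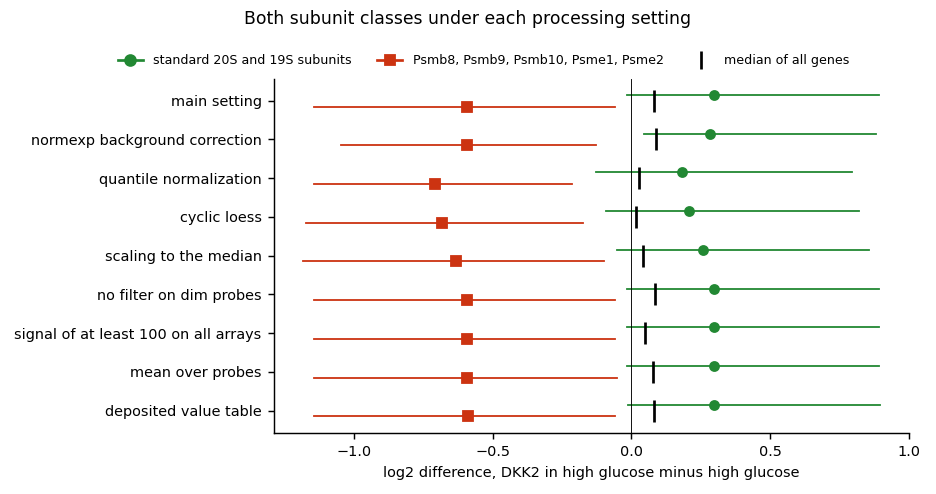
Median (point) and range (line) of the log2 difference between DKK2 in high glucose and high glucose for 32 standard core and cap subunits (circles; 31 to 32 by setting) and for Psmb8, Psmb9, Psmb10, Psme1 and Psme2 (squares), under the main setting and 8 others; the tick is the median of all genes. The standard median ran from 0.18 to 0.30 and that of the 5 induced genes from -0.71 to -0.59.

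Under all 9 settings the 5 induced genes were below 0 with DKK2, and 29 to 32 of the standard subunits were above 0. Psme2 was close to 0, between -0.22 and -0.05 over the settings. All settings process the same arrays, and the 5 genes were joined after their values were seen, so this is no independent support. With quantile normalization both medians were lower than in the main setting, at 0.18 for the standard subunits and -0.71 for the induced genes, against 0.03 over all genes.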

How the data were processed

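Feature Extraction 11.5.1.1 quantified the arrays, per the file headers, and the deposited files give each spot's background-corrected processed signal, a linear intensity. The authors' value table holds the same intensity as a mean per probe, matching within a fraction of 0.001 in 99.2% to 99.4% of probes by array. Groups came from the sample titles. Control spots (1377 per array) and 110 to 136 outlier spots per array were left out, and 0 spots were saturated. The value used was log2 signal minus log2 of each array's 75th percentile over probes (1201, 2380 and 2417 in normal glucose, high glucose and DKK2), averaged over spots of a probe. A probe was taken as well above background if 50% or more of its spots carried that call. A gene was read on its brightest such probe, and a difference needed that probe above background on both arrays. Probes were named by accession through a RefSeq gene table (GRCm38.p6, names only; the headers give another build). The number of arrays limits the precision: with 1 array per group no test was made.

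The members, roles and lists were chosen with earlier results of these data known; joining the immunoproteasome and PA28 genes into 1 group of 5 followed sight of their values. Named are members at least 2-fold apart, the immunoproteasome and PA28 genes, the extremes of each role and members whose probes disagreed. Psmd2, Psmd11 and a few others named beside them were picked after their values were seen. Alternatives were normexp on the median signal (offset 50; the mean signal was not used here), quantile normalization, cyclic loess, median scaling, no filter, a floor of 100 on the signal of every array, averaging a gene's probes, the authors' value table, and 1.5-fold and 3-fold rules. The counting was tested on simulated data. Tools were R 4.3.3, limma 3.58.1, Python 3.11.15, numpy 2.4.6 and pandas 2.3.3.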

Additional observations from a re-analysis of the deposited data

How the results depend on the processing

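Medians of the proteasome genes moved by less than 0.20, the technical error SD of a single gene's difference, under all 8 alternatives. That SD is not the error of a median over many genes, so the medians are not shown to be insensitive to processing. For high against normal glucose the median ran from 0.09 to 0.27 (0.18 in the main setting). It ran from 0.14 to 0.29 for DKK2 against high glucose (main 0.28) and from 0.28 to 0.52 for DKK2 against normal glucose (main 0.46). Normexp moved the median of all genes from 0.09 to -0.26 in the first comparison and from 0.12 to -0.25 in the third; relative to it the proteasome medians were 0.53 and 0.77, against 0.10 and 0.34 in the main setting. Cyclic loess moved the third from 0.12 to 0.00. Counts of genes at least 2-fold apart moved as follows. For high against normal glucose (3 higher, 1 lower), quantile normalization and cyclic loess gave 2 higher, normexp and median scaling 4, the mean over probes left 0 lower, 1.5-fold gave 11 higher and 6 lower, and 3-fold gave 1 and 0. For DKK2 against high glucose (0 higher, 1 lower), 1.5-fold gave 4 and 3, and 3-fold left 0 lower. For DKK2 against normal glucose (9 higher, 3 lower), quantile normalization and cyclic loess each gave 4 higher, normexp 12, the mean over probes 7 higher and 2 lower, 1.5-fold gave 20 and 5, and 3-fold gave 1 and 1. Of 1111 values of single genes under an alternative, 1082 stayed within the technical error of the main value, 29 moved further, and 0 differences of at least 2-fold changed sign. For several alternatives this agreement was largely fixed in advance. Dropping the filter or adding the floor kept the same probes and scaling, and median scaling shifted all genes on an array alike. The authors' table holds the same intensity, and the mean over probes can change only the 11 genes with 2 probes. The share that stayed is therefore little evidence of insensitivity to processing. The cause of the moves was not tested. No paired analysis was possible because each condition had 1 array. Without replicate arrays, the spread between cultures is unknown, and signal over background limits only Psma8 and Psmb11.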
